A study of Mus musculus with 4 samples.

Results

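The fibrillar collagen genes described here are Col1a1, Col1a2, Col3a1, Col5a1, Col5a2 and Col11a1, a set of 6 genes chosen as the fibrillar chains that fibroblasts make. They were found by their symbols in the platform's probe annotation, where they had 14 probes, and all 6 had a value on every array once the probes of a gene were averaged. They stand among 6327 genes that could be tested. Expression was compared on 4 two-colour cDNA arrays between an NIH3T3 line transfected with Erbb2, labelled as overexpressing it, and untransfected NIH3T3 cells, labelled as having normal Erbb2 expression. NIH3T3 cells are mouse embryonic fibroblasts grown as an established line, and Erbb2 (HER2, Neu) is a tyrosine kinase receptor related to the epidermal growth factor receptor. The transfected RNA was labelled with Cy5 for arrays 1 and 2, and the dyes were swapped for arrays 3 and 4. The series calls the arrays technical replicates, so each of the 2 lines gave 1 biological sample, and every SD and p-value below covers the spread between hybridisations only. The labels do not say whether the transfected line was a clone, a pool or transiently transfected, nor which promoter drove the transgene. Erbb2 and whatever else differs between the lines cannot be told apart in this design.

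Fibrillar collagens are secreted as procollagens. The chains wind into a triple helix in the endoplasmic reticulum, helped by prolyl hydroxylases and the chaperone encoded by Serpinh1, and the propeptides are cut off outside the cell before fibrils form and are cross-linked by lysyl oxidases. Type I collagen, made of the chains of Col1a1 and Col1a2, is the main fibril-forming collagen of skin, bone and tendon. Type III collagen (Col3a1) shares its fibrils in soft tissues. The minor types V (Col5a1, Col5a2) and XI (Col11a1) sit inside the fibrils and help to start them and to set their width.

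All values are log2 ratios of the transfected over the untransfected line. That direction is likely but not stated by the submitters. It takes Cy5 over Cy3 as the quotient, with the sign already turned in the deposited values of arrays 3 and 4. No sign was turned here. If the quotient were the other way, every sign below would turn together. If the deposited signs had not been turned, only those of arrays 3 and 4 would turn, and the means over 4 arrays would not hold. A value of -1 is a level 2 times lower in the transfected line. The median of all genes tested was -0.08. Values were present for 94.6%, 81.0%, 76.8% and 89.4% of the 20355 rows on arrays 1 to 4, and no intensities were used here, so the level of a gene, and how far its spot lay above background, are unknown. The ratios of any 2 arrays correlated weakly across the 6327 genes, with Pearson's r from 0.123 to 0.202. Genes are not independent replicates. In the lower part of the table the columns of arrays 2 to 4 are displaced against array 1, so they were read 3 rows higher in rows 8001 to 18000 and 4 rows higher from row 18301 on. The annotation names 0 probes for Erbb2, and the transfected gene could not serve as a check of the labels.

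The type I chains, Col1a1 and Col1a2, had the lowest means of the fibrillar collagens, and 4 of the 6 genes were below 0 on every array, against 13.0% of all genes tested. The mean was below 0 for 5 members, against 56.1% of all genes. The members' median was -1.36, with means from -4.91 to 0.89. Limma, fitted over all genes with a dye term, called 0 of the 6 members and 0 of the 6327 genes (0.0%) at a Benjamini-Hochberg adjusted p under 0.05. At an unadjusted p under 0.05, 4 members were lower and 0 higher, where 7.49% of all genes were lower and 4.05% higher. That count was 3 when arrays were centred and without array 1, array 2 or array 4, each time through the loss of Col5a1.

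**Figure D1:**
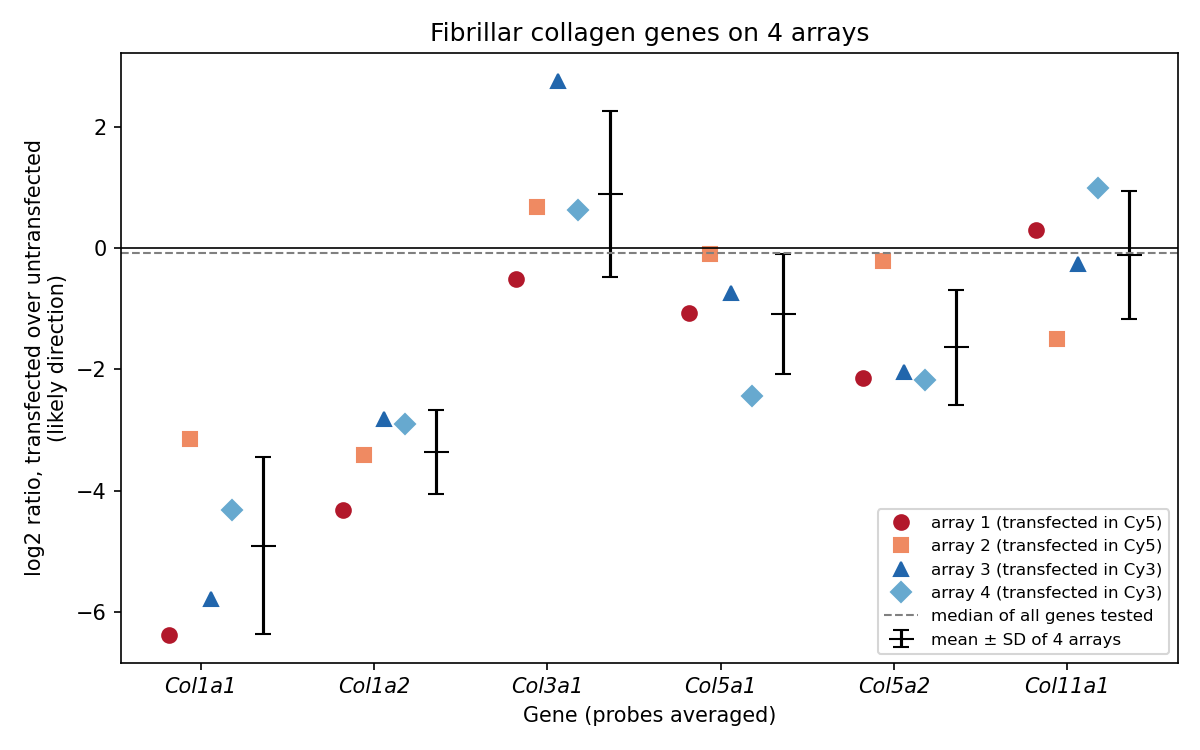
Log2 ratio of each fibrillar collagen gene on the 4 arrays (vertical axis, transfected over untransfected, likely direction), coloured by array and dye, with the mean ± SD at the right of each gene and the median of all genes as a dashed line. Col1a1 and Col1a2 lie at or below -2.82 on every array, Col5a1 and Col5a2 lie below 0 on every array, and Col3a1 and Col11a1 have values on both sides of 0.

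Col1a1 encodes the chain that makes up most of type I collagen. It had log2 ratios of -6.38, -3.14, -5.79 and -4.32 on arrays 1 to 4. Every array was thus far below 0, and array 2 was the nearest to it. The mean was -4.91 ± 1.46 (SD, n = 4 arrays), a 30.0-fold lower level in the transfected line, with a 95% interval of -6.46 to -3.35 (limma, adjusted p = 0.161). Of the 6327 genes only 2 had a lower mean, and both act on or in collagen matrix: Bgn, which encodes the proteoglycan biglycan (-5.48 ± 3.13), and Lox, which encodes the lysyl oxidase that cross-links collagen (-5.18 ± 0.95).

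Col1a2, which encodes the partner chain of type I collagen, had log2 ratios of -4.31, -3.41, -2.82 and -2.91. Its arrays lay closer together than those of Col1a1. The mean was -3.36 ± 0.69 (SD, n = 4 arrays), a 10.3-fold lower level, with a 95% interval of -4.14 to -2.58 (limma, adjusted p = 0.105). It ranked 11 from the bottom among all genes tested. With all rows as deposited, where arrays 2 to 4 of the lower-row probes belong to other rows, the mean was -1.59 (adjusted p = 0.596), and with offsets 1 row larger and smaller it was -1.26 and -1.5. In these settings Col1a2 lay above Col5a2.

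The single probes of the type I chains fell into those with large, even values and those whose arrays disagreed. For Col1a1, probe 4862 had -6.12, -5.10, -5.79 and -5.55, a mean of -5.64 ± 0.43 (SD, n = 4 arrays). All 4 arrays of that probe agreed within about 1 log2 unit. Probe 4831 had -6.64 on array 1, -1.19 on array 2 and -3.09 on array 4, with no value on array 3. The spread of the Col1a1 gene mean thus came with probe 4831, which differed from probe 4862 by 0.51 on array 1 but by 3.91 on array 2.

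Col1a2 had 4 probes. Probe 18404 had log2 ratios of -4.98, -4.77, -4.37 and -3.97, and probe 19569 had -5.20, -5.17, -4.59 and -4.54. These probes, in separate places of the table, differed by 0.21 to 0.56 on any array. Probe 3130, in the first 6000 rows, where no offset was applied, had -3.49, -3.56 and -3.85 on arrays 1, 2 and 4. It thus gave low ratios for Col1a2 on each of those arrays without any move of rows. Probe 19482 had -3.59 on array 1 but -0.12, 0.50 and 0.72 on arrays 2 to 4, apart from the other Col1a2 probes by 3.44 to 5.26 on those arrays. Without that probe, a choice made after its values were seen, the Col1a2 mean was -4.41 (limma, adjusted p = 0.0799).

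**Figure D2:**
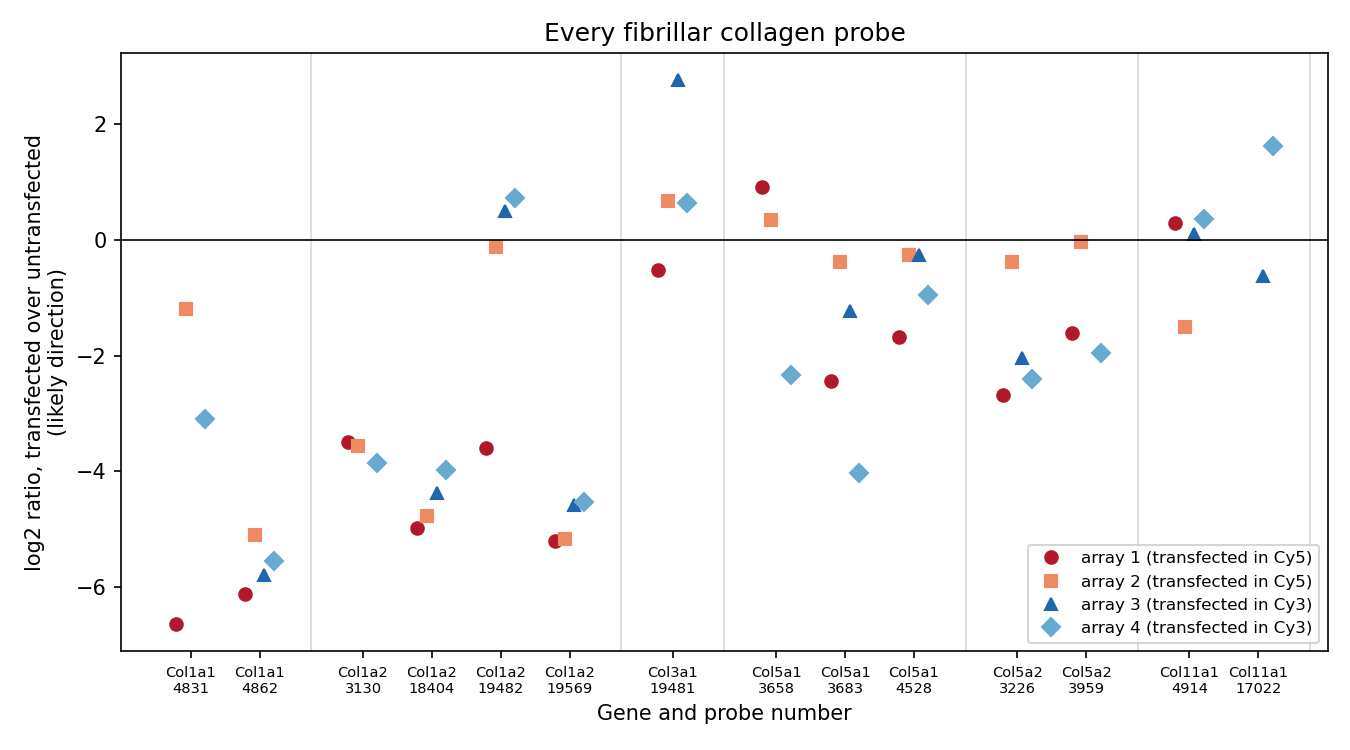
Log2 ratio of each of the 14 fibrillar collagen probes on every array with a value (vertical axis, likely direction), grouped by gene. Probe 4862 of Col1a1 and probes 18404 and 19569 of Col1a2 lie between -6.12 and -3.97 on all 4 arrays, whereas probe 19482 of Col1a2 is low on array 1 only.

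With every probe tested on its own, limma called 6 of 7603 probes (0.0789%), all with a mean below 0, and 3 of them belonged to type I collagen. These were probe 4862 of Col1a1 and probes 18404 and 19569 of Col1a2, with means of -5.64, -4.53 and -4.87 and an adjusted p of 0.0226 each. The other calls were 2 probes of Fn1, which encodes fibronectin (-4.64 and -4.69), and 1 of Lox (-6.04), with the same adjusted p. Of the 9 collagen probes with a value on all 4 arrays, 6 were below 0 on every array, against 13.2% of all such probes. When genes were averaged only over probes with a value on every array, a setting added after the values were seen, limma called Col1a1 (-5.64, adjusted p = 0.032) and Lox, which are 0.0324% of 6179 genes.

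The lower-row probes also show what the row offset does to the collagen values. At the offset of 4 rows, the mean of arrays 2 to 4 was -4.37 for probe 18404 and -4.76 for probe 19569, each beside an array 1 value near -5. At 3 rows those means were -0.11 and 0.77, and at 5 rows 0.36 and -0.36. Of 21 offsets from -8 to 12 rows, 1 had values below -2 on all 3 arrays for each of these probes, and it was the offset of 4. The low values reported for these probes come from that same offset, so the scan is no independent check of it. Low values also occur at other offsets. At 4 rows, where its own offset is 3, probe 17022 of Col11a1 met -5.10, -5.56 and 0.16 on arrays 2 to 4. At 10 rows probe 19569 met -5.12 and -2.21 on arrays 3 and 4, with no value on array 2. For probe 19482 no offset in that range gave values below -2 on all 3 arrays.

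**Figure D3:**
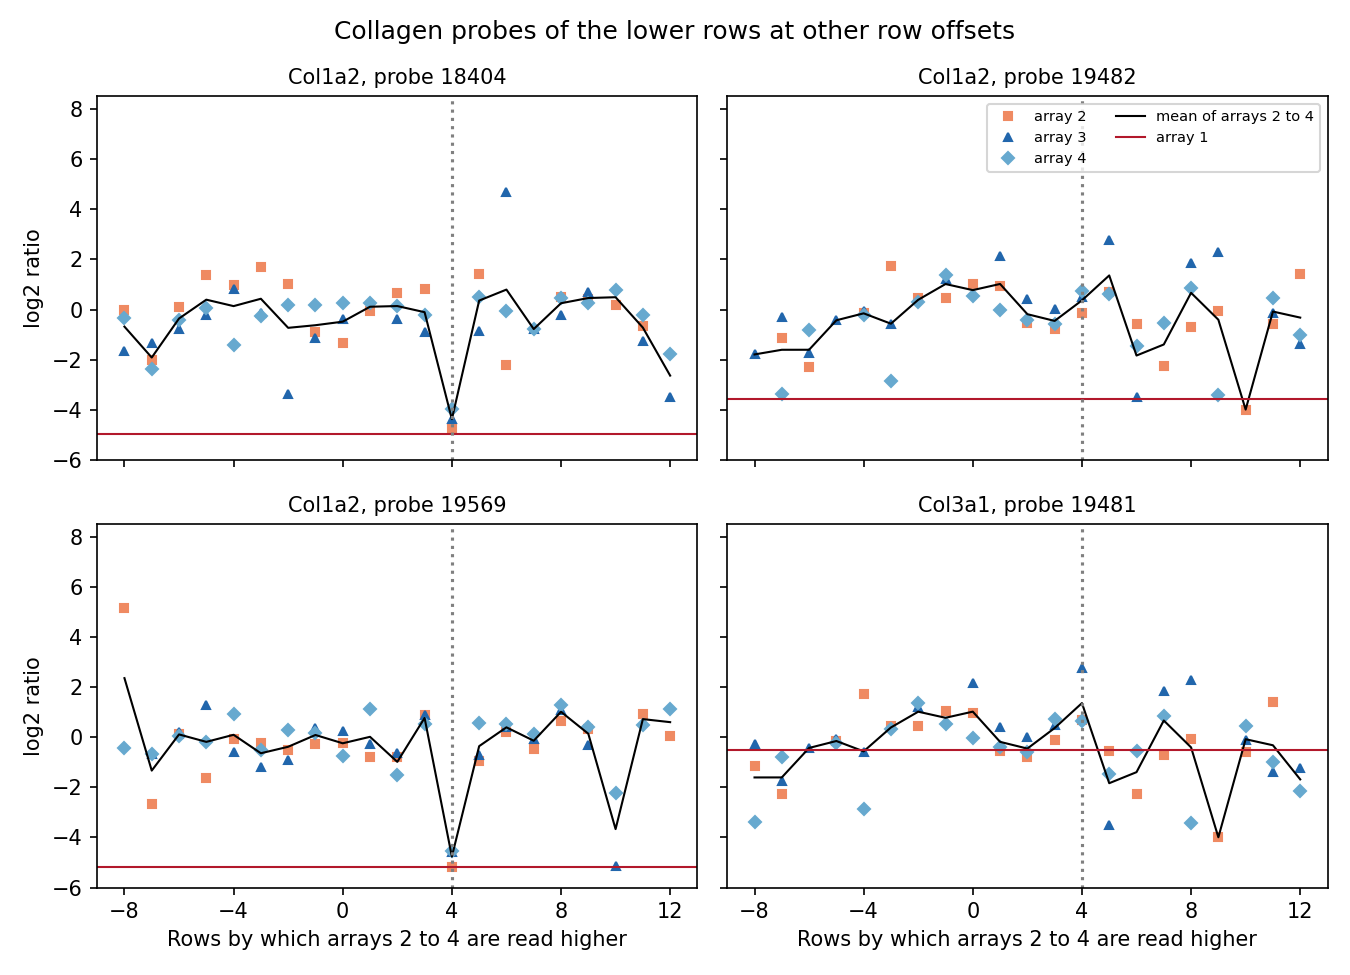
Log2 ratios of arrays 2 to 4 (points) and their mean (black line) for 4 collagen probes of the lower rows when these arrays are read -8 to 12 rows higher (horizontal axis), with the array 1 value as a red line and the applied offset of 4 as a dotted line. For probes 18404 and 19569 the arrays meet array 1 at 4 rows; for probes 19482 and 19481 they do not.

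Col3a1, which encodes the chain of type III collagen, had log2 ratios of -0.51, 0.68, 2.76 and 0.64. Array 1 was below 0 and the others above it, with array 3 the highest. The mean was 0.89 ± 1.36 (SD, n = 4 arrays), with a 95% interval of -0.29 to 2.07 (limma, adjusted p = 0.513), so a difference between the lines was not detectable. The interval lies above those of both type I chains. This gene rests on 1 probe, 19481, in the row next to the Col1a2 probe 19482 that departed from the other Col1a2 probes. With the offset 1 row larger its mean was -1.51 (adjusted p = 0.545), with the offset 1 row smaller it was 0.15, and with all rows as deposited it was 0.64. Without array 3 the fitted mean was 0.36. Without array 4 it was 1.42 (limma, unadjusted p = 0.0234, adjusted p = 0.257), so Col3a1 was then higher at an unadjusted p under 0.05.

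The type V chains lay between those of types I and III. Col5a1 had log2 ratios of -1.07, -0.10, -0.74 and -2.44, with array 2 close to 0 and array 4 the lowest. Its mean was -1.09 ± 0.99 (SD, n = 4 arrays), with a 95% interval of -2.12 to -0.06 (limma, adjusted p = 0.421). Its 3 probes were unequal: probe 3683 had a mean of -2.02 ± 1.58 and probe 4528 of -0.78 ± 0.68 over 4 arrays. Probe 3658 had 0.91, 0.34 and -2.33 on arrays 1, 2 and 4, so its sign differed between arrays. Without array 4 the mean of the gene was -0.66.

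Col5a2 had log2 ratios of -2.14, -0.21, -2.04 and -2.17. Arrays 1, 3 and 4 nearly coincided, array 3 with probe 3226 only, and array 2 lay close to 0. The mean was -1.64 ± 0.96 (SD, n = 4 arrays), a 3.11-fold lower level, with a 95% interval of -2.67 to -0.61 (limma, adjusted p = 0.338). Both of its probes showed array 2 nearest to 0, at -0.38 for probe 3226 and -0.04 for probe 3959. The other values of these probes ranged from -2.68 to -1.60.

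Col11a1, which encodes a chain of type XI collagen, had log2 ratios of 0.30, -1.51, -0.26 and 1.0. The arrays lay on both sides of 0, and the mean was -0.12 ± 1.06 (SD, n = 4 arrays), close to the median of all genes (95% interval -1.22 to 0.99, adjusted p = 0.932 by limma). Probe 4914 had 0.30, -1.51, 0.10 and 0.37, and probe 17022 had values only on arrays 3 and 4, at -0.62 and 1.63. The mean was 0.34 without array 2 and -0.57 without array 1, so its sign rested on single arrays. With the offset 1 row larger it was -1.37, and 1 row smaller 0.44.

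From low to high, the order of the means was Col1a1, Col1a2, Col5a2, Col5a1, Col11a1 and Col3a1. The 95% intervals of Col1a1 and Col1a2 overlapped, as did those of Col5a2 and Col5a1, of Col5a1 and Col11a1, and of Col11a1 and Col3a1. Between Col1a2 and Col5a2 they overlapped only slightly, from -2.67 to -2.58. Array 2 was the nearest to 0 of the 4 arrays for Col1a1, Col5a1 and Col5a2, and the lowest for Col11a1.

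The dye orientation gave no call for any member. Col1a1 averaged -4.76 with the transfected RNA in Cy5 and -5.05 with it in Cy3, and Col1a2 averaged -3.86 and -2.86 in those orientations. For both chains the sign of the deposited values was the same in either orientation, and the difference between orientations was smaller than the mean. Limma's dye term had adjusted p-values from 0.868 to 0.961 over the 6 genes. The widest gap was that of Col3a1, with 0.08 in the Cy5 orientation and 1.70 in the Cy3 orientation.

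**Figure D4:**
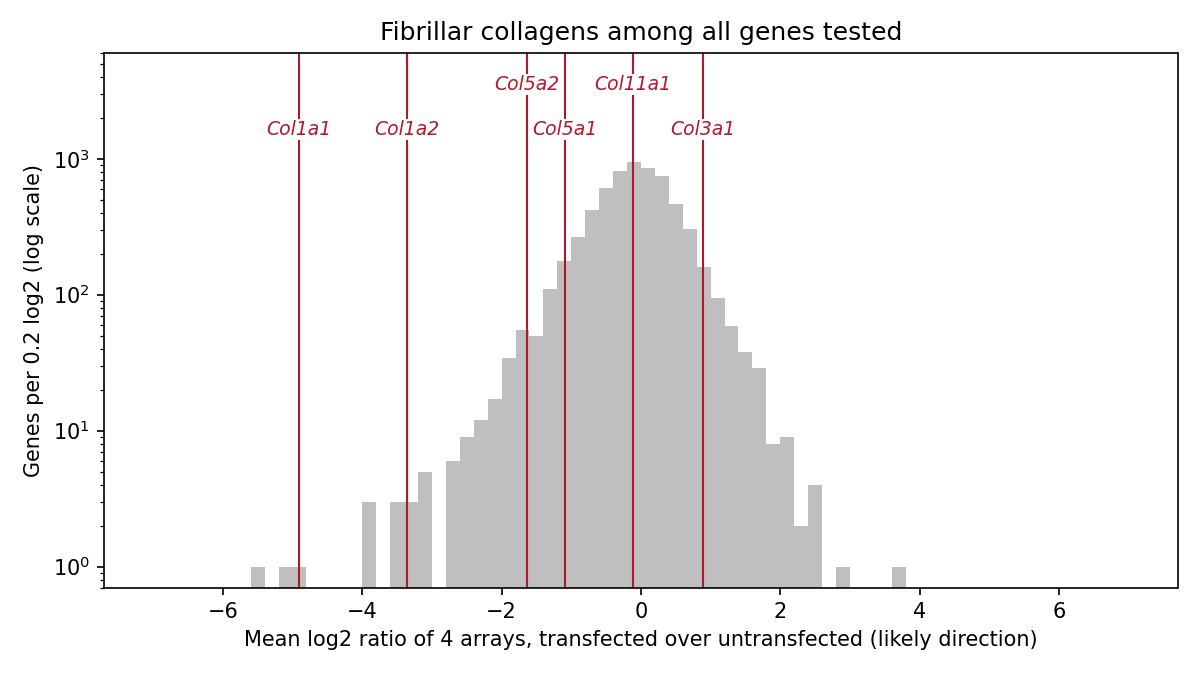
Number of genes (vertical axis, log scale) by mean log2 ratio over 4 arrays in steps of 0.2 (horizontal axis, likely direction), with the 6 fibrillar collagens as red lines. Col1a1 and Col1a2 stand in the sparse lower tail, and Col11a1 lies near the centre.

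The genes whose 4 values lay nearest to those of the type I chains, by Euclidean distance over the 4 log2 ratios, were largely matrix genes. The ratios were not centred per gene, so this distance returns mostly genes with similarly low means. It is no test of a shared pattern. For Col1a1 the nearest genes were Fn1 (distance 3.15), Lox (3.76) and Fbln2, which encodes fibulin 2 (3.77). For Col1a2 they were the secreted serine protease gene Prss23 (0.96), Fn1 (1.2) and Fbln2 (1.23). Col1a1 thus had no gene as near to it as Col1a2 had. Its gene values include probe 4831, at -1.19 on array 2 where probe 4862 had -5.10. Fn1 averaged -3.89 ± 0.36, Fbln2 -3.27 ± 0.51 and Prss23 -3.03 ± 0.88 (SD, n = 4 arrays).

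Promoter sequences from RefSeq (build GRCm38.p6) were matched by symbol for 4 of the 6 genes: Col1a2, Col3a1, Col5a1 and Col11a1. The 250 bases before the annotated start are printed for the lowest and the highest of these genes, Col1a2 (chr6:4505368-4505617, plus strand) and Col3a1 (chr1:45311288-45311537, plus strand). Capitals mark matches to CCAAT, the motif bound by the factor NF-Y, or to TATAAA, the sequence of the TATA box.
Col1a2: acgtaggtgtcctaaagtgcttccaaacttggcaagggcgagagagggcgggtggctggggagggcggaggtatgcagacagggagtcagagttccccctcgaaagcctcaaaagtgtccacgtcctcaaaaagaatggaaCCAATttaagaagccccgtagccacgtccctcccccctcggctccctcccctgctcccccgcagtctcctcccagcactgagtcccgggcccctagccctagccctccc
Col3a1: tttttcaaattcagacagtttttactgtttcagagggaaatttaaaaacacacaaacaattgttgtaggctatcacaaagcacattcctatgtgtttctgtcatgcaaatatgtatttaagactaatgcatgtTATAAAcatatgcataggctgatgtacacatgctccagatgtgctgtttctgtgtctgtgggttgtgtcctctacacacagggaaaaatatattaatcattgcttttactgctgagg
Both strands were searched, and the motifs do not overlap here. CCAAT occurred once in the window of Col1a2, 109 to 105 bases before the start, and once in that of Col11a1, on the minus strand 79 to 75 bases before it; 33.9% of 32851 promoter windows of this length hold it. TATAAA occurred in the window of Col3a1, 117 to 112 bases before the start, as in 12.4% of all windows. Whether that match acts as a TATA box was not tested. GGGCGG, a GC box, had 2 matches each in Col1a2, Col5a1 and Col11a1 and 0 in Col3a1, and 32.7% of all windows hold it. The GC content was 62.0% for Col1a2, 35.2% for Col3a1, 76.4% for Col5a1 and 62.4% for Col11a1, against a median of 52.4%.

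Of 35 collagen chains outside the set, 12 had a value on all 4 arrays. Among these are Col27a1 and Col2a1 (-0.40 ± 0.95), which also encode fibrillar chains. Limma called 0 of the 12, 2 were lower and 0 higher at an unadjusted p under 0.05, against 7.49% and 4.05% of all genes. The median was -0.23. The lowest were Col6a1 (-1.71 ± 1.27) and Col6a2 (-1.55 ± 1.17), which encode chains of the microfibrillar type VI collagen, and Col18a1, whose chain carries endostatin (-0.51 ± 0.86). The highest were Col25a1 (0.60 ± 2.13), Col27a1 (0.41 ± 1.12) and Col9a2 (0.29 ± 0.71), each with an SD above its mean. Col4a1 and Col4a2, the basement membrane chains, had -0.18 ± 0.24 and -0.29 ± 0.43. None of these 12 means was as low as those of Col1a1 and Col1a2.

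Of 14 measured genes listed for procollagen folding and hydroxylation, among them the regulator gene Creb3l1, 10 had a mean below 0 and 4 above. Of all genes, 56.1% had a mean below 0. Limma called 0, 5 were lower and 0 higher at an unadjusted p under 0.05, against 7.49% and 4.05% of all genes. The median was -0.46. Creb3l1, which encodes a transcription factor that activates type I collagen genes in bone, had -1.26 ± 1.84. Its values were -0.40 and 0.92 on arrays 1 and 2 but -2.95 and -2.61 on arrays 3 and 4, which have the other dye orientation. Limma's dye term gave this gene no call (unadjusted p = 0.00627, adjusted p = 0.868). The collagen galactosyltransferase gene Colgalt2 had -1.21 ± 1.04. P4ha2 and P4ha1, which encode catalytic subunits of prolyl hydroxylase, had -1.0 ± 0.53 and -0.89 ± 0.34 and were below 0 on every array. The collagen chaperone gene Serpinh1 had -0.84 ± 0.70, also below 0 on every array. At the other end, the prolyl hydroxylase genes P3h1 and P4ha3 had 0.38 ± 0.69 and 0.34 ± 0.74, and the galactosyltransferase gene Colgalt1 had 0.09 ± 0.98.

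The genes of propeptide cleavage and cross-linking were split. Of 5 measured genes, 0 were called, 2 were lower and 0 higher at an unadjusted p under 0.05, against 7.49% and 4.05% of all genes. The median was -0.47. Lox had log2 ratios of -3.81, -5.72, -5.92 and -5.27 (limma, adjusted p = 0.105). Every array was below -3. Pcolce, which encodes the enhancer of the procollagen C-proteinase, had -1.36 ± 0.58, whereas the related oxidase genes Loxl1 and Loxl3 had -0.47 ± 0.57 and 0.48 ± 0.67. The metalloproteinase gene Mep1a had 0.18 ± 1.07.

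The list of fibril-associated proteins, which counts Fn1 and Fbln2, included several of the lowest genes. Of 7 measured, 0 were called, 4 were lower and 0 higher at an unadjusted p under 0.05, against 7.49% and 4.05% of all genes. The 4 lower genes were Bgn, Fn1, Fbln2 and Sparc, and the median was -3.14. Bgn was the lowest gene of the table, but its arrays ranged from -8.70 to -1.99. Sparc, a collagen-binding glycoprotein, had -3.14 ± 0.42. Prelp (-0.24 ± 0.57) and Fbln1 (-0.095 ± 1.21) lay near 0. Aspn, which encodes asporin, was the highest of the group at 0.58 ± 0.96.

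Of 5 measured collagen receptors, 0 were called, 0 were lower and 2 higher at an unadjusted p under 0.05, against 7.49% and 4.05% of all genes. The median was 0.17. Itgb1, which encodes the integrin subunit common to the collagen-binding integrins, was the lowest at -0.12 ± 0.12. The highest was Gp6, known as the platelet collagen receptor, at 1.59 ± 1.75. Mrc2, which encodes an endocytic collagen receptor, had 0.87 ± 1.12, with 1.58 and 2.07 on arrays 1 and 2 and values near 0 on the others. Genes that degrade collagen or inhibit its degradation had a median of -0.36 over 7 measured genes, of which 0 were called. At an unadjusted p under 0.05, 3 of them were lower and 0 higher, against 7.49% and 4.05% of all genes. The inhibitor gene Timp3 was the lowest at -3.97 ± 1.33 and the gelatinase gene Mmp9 the highest at 0.09 ± 0.71.

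Of 10 measured regulators of collagen genes, 0 were called, as were 0 of all genes. At an unadjusted p under 0.05, 0 were lower and 0 higher, against 7.49% and 4.05% of all genes. At those shares, 0 of 10 does not show that the regulators were unchanged. Their median was -0.15, and they ranged from Prrx1, a mesenchymal homeobox factor (-0.94 ± 0.89), to Ybx1, a Y-box protein (0.51 ± 0.20).

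**Figure D5:**
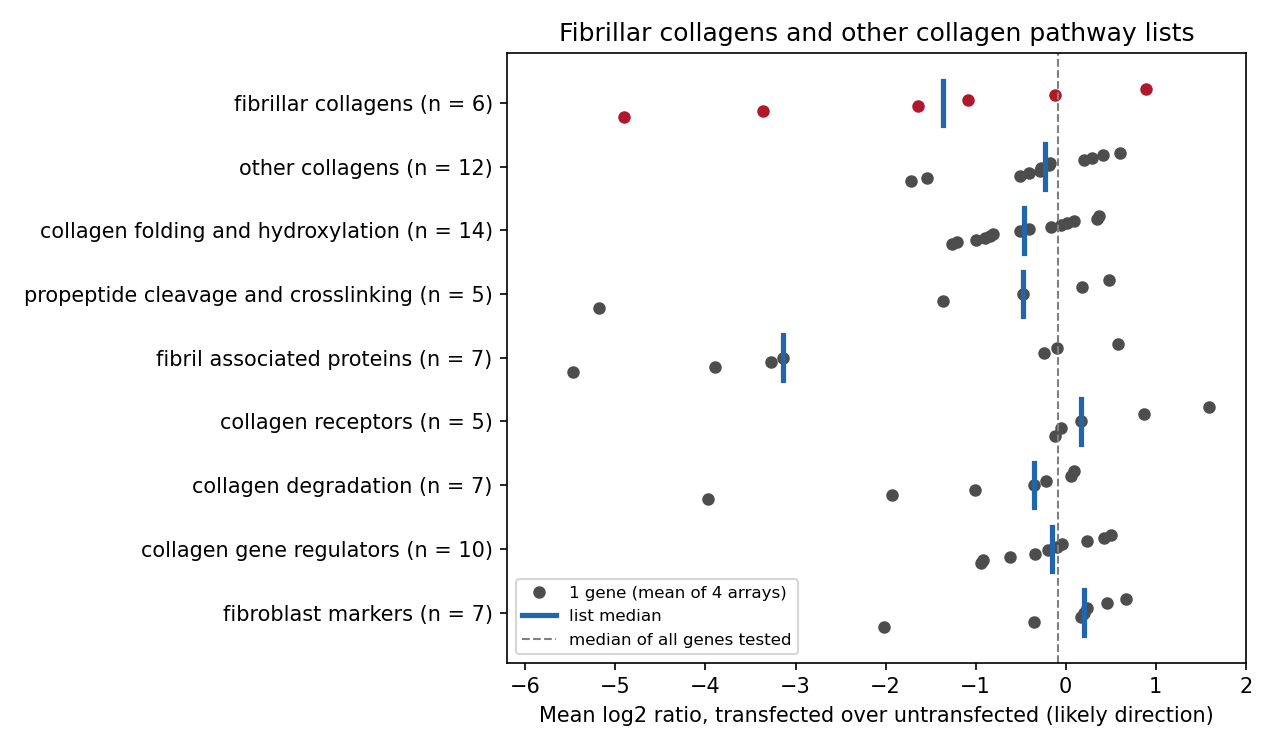
Mean log2 ratio over 4 arrays (horizontal axis, likely direction) of each measured gene in the fibrillar collagen set, in red, and in 8 other lists, with the list median as a blue bar and the median of all genes as a dashed line. The low values of Col1a1 and Col1a2 are matched by single genes of the cross-linking, fibril-associated and degradation lists, and not by the other collagens.

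Of 7 measured fibroblast markers, 0 were called, and 1 was lower and 0 higher at an unadjusted p under 0.05, against 7.49% and 4.05% of all genes. Vim, which encodes the intermediate filament protein vimentin, was the highest at 0.66 ± 0.18 and above 0 on every array, and Cd34, the gene that was lower, had -2.02 ± 0.35 and was at or below -1.67 on every array (limma, adjusted p = 0.161). The median of the list was 0.20. Of the measured markers of epithelial cells (3), leukocytes (3), endothelium (4), muscle (3) and adipocytes (3), 0 were called. At an unadjusted p under 0.05 Lyz2 was lower and Cldn3 higher. The list medians ran from -0.64 to 0.35. The lowest and highest were Epcam (-0.52) and Cldn3 (0.86) for epithelium, Lyz2 (-1.17) and Cd3e (0.78) for leukocytes, Tie1 (-0.48) and Cdh5 (0.45) for endothelium, Mylpf (-0.45) and Des (0.11) for muscle, and Plin1 (-0.65) and Fabp4 (0.27) for adipocytes. Ratios do not show whether a marker is present in the cells, and the part of other cells in the collagen values was not tested.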

How the data were processed

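The authors deposited log2 ratios of both channels for 20355 probes on 4 arrays. How the images were read, corrected for background and normalized is not given in the sources used here. Their scale was taken from the values. The medians of all deposited rows were 0.14, 0.03, -0.18 and -0.23 on arrays 1 to 4. These rows were thus not centred on a median of 0, and other kinds of centring cannot be judged from them. Rows up to 6000 were used as they stand; from 8001 to 18000 arrays 2 to 4 were read 3 rows higher, and from 18301 on 4 rows higher, which kept 18055 rows and dropped 2300. Values beyond 15 either way were dropped. Of the probes, 14030 had 1 symbol in the platform annotation of GEO, 5 had several and 6320 were unnamed here; 13994 matched a RefSeq gene (GRCm38.p6), with 0 symbols changed. No gene coordinates are given, since no build is named for the array.

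Each array's values were averaged over a gene's probes. Genes with a value on all 4 arrays (6327) were fitted with limma 3.58.1 (R 4.3.3; lmFit, eBayes) on a mean and a dye term coded 1 and -1, with Benjamini-Hochberg adjustment over all genes. The number of arrays limits the precision. The genes, lists and tests were chosen with earlier results of these data known. The text names, per list, the genes with the lowest and highest means (up to 3 at each end for other collagens, folding, and cleavage and cross-linking; 1 at each end otherwise), any called gene, and the 3 genes nearest to Col1a1 and to Col1a2. Genes named beyond this rule were chosen after their values were seen. These are Serpinh1, P4ha1, Col2a1, Col4a1, Col4a2, Sparc, Prelp, Fbln1 and Mrc2. Alternatives changed the dye term, centring, scaling, prior, missing arrays, probes, rows and arrays left out.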

Additional observations from a re-analysis of the deposited data

Results flagged for a closer look

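Of 16 gene, probe and summary values checked for the fibrillar collagens, 2 had 1 array far from the other 3; chance flags about 1 in 20 groups, and genes and their probes share values. Col5a2 lay at -0.21 on array 2 and between -2.17 and -2.04 on the others, so that the gap was 0.931 of the whole range. Array 3 of Col5a2 rests on probe 3226 alone. That probe, with -2.68, -0.38, -2.04 and -2.39 on arrays 1 to 4, was not flagged by itself. Probe 4914 of Col11a1 lay at -1.51 on array 2 and between 0.10 and 0.37 on the others, a gap of 0.857 of the range.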

How the results depend on the processing

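The direction of Col1a1, Col1a2, Col5a1 and Col5a2 was the same in every alternative run (17 to 19 per gene, including left-out arrays and the single probes with a value on all 4 arrays). Means ran from -5.72 to -4.10 for Col1a1, -4.87 to -0.62 for Col1a2, -2.02 to -0.66 for Col5a1 and -2.12 to -1.16 for Col5a2. Many of these runs could not change the direction. All probes of Col1a1, Col5a1 and Col5a2 lie in the first 6000 rows, which no offset moves. Leaving out the dye term, the robust prior, at least 3 arrays and values beyond 15 kept left the means of all these genes unchanged. Probes with fewer arrays were not fitted singly; among these, probe 4831 of Col1a1 had a mean of -3.64 and probe 3658 of Col5a1 of -0.36. Col1a1 passed limma's test with complete probes only (-5.64, adjusted p = 0.032; settings ranged from 0.0226 to 0.61), and its probe 4862 (-5.64) and the Col1a2 probes 18404 (-4.53) and 19569 (-4.87) passed when probes were tested singly. Col11a1 turned to 0.102 with all rows as deposited, 0.019 with arrays scaled to a common spread and 0.438 with an offset 1 row smaller, and ranged from -0.57 to 0.34 when 1 array was left out; Col3a1 turned to -1.51 with an offset 1 row larger, where Col11a1 had -1.37, and was 0.15 with an offset 1 row smaller. Without each array in turn, 4 to 5 members had a mean below 0. Without array 4, Col3a1 was higher at an unadjusted p under 0.05. The count of 4 members lower at an unadjusted p under 0.05 was 2 in the first 6000 rows, 1 in the moved lower rows, and 3 to 4 without 1 array. Col5a1 left that count in the first 6000 rows, with arrays centred or scaled, with at least 3 arrays, with values beyond 15 kept and without array 1, 2 or 4; Col1a2 left it with either changed offset, where Col3a1 joined it at the larger one. In the moved lower rows alone, where 2 members have a value on all 4 arrays, 1 had a mean below 0 and 1 was below 0 on every array.

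The count of 0 called genes became 3 with scaling, 6 without the dye term, 6 with single probes and 2 with complete probes, and stayed at 0 without any 1 array. Genes lower at an unadjusted p under 0.05 (474) numbered 303 in the lower rows and 217 in the first 6000, where fewer genes were tested, and 252 to 587 without 1 array, the lowest being without array 2. Genes higher (256) numbered 167 as deposited, 59 in the first 6000 rows, 159 and 157 with offsets 1 row larger and smaller, and 103 (without array 2) to 394 (without array 4) with 1 array left out. Other causes were not tested. The offset, complete-probe and left-out-probe settings were added after the data were seen. Each ratio already pairs both lines within an array, so no replicate block was added. The number of arrays and the unknown signal over background limit the low values, since a ratio against a dim spot has no known error.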
